A study of Mus musculus with 11 samples.

Results

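The S100 genes encode small calcium-binding proteins, and 8 of them were followed here in cortical neurons of mice withdrawn from chronic ethanol: S100a1, S100a4, S100a6, S100a10, S100a11, S100a13, S100a16 and S100b. They were taken by symbol from the 53465 genes of the count files. S100a1 was chosen by its high counts in the ethanol samples of these same data, so its difference between the groups is given as a description with no test. The other 7 are family members listed with it. Each library was made from mPFC CRF1+ neurons of 1 male adult mouse over 10 weeks old. These are cells of the medial prefrontal cortex (mPFC) sorted by flow cytometry for green fluorescent protein, which in CRF1:GFP reporter mice marks cells that express the corticotropin releasing factor receptor CRF1. The naïve group (6 mice) breathed air, and the withdrawn group (5 mice) breathed ethanol vapor intermittently for 5 to 6 weeks and was then kept from ethanol for 5 to 8 days. Both groups received pyrazole, an inhibitor of alcohol dehydrogenase, and the withdrawn mice received it together with ethanol. The comparison between the groups addresses which transcripts of these neurons differ in ethanol withdrawal.

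S100 proteins carry a pair of EF-hand loops, a helix-loop-helix fold shared with many other calcium-binding proteins. Most of them form dimers, open a binding surface when calcium rises and so regulate a partner protein. S100A10 is the exception that does not bind calcium and works in a complex with annexin A2. In the brain S100B is known as a protein of astrocytes, and some S100 proteins act outside the cell through the receptor RAGE, encoded by Ager.

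Counts assigned to genes ranged from 7351567 to 22244869 per mouse, and values are given as CPM, read counts scaled to the TMM-adjusted size of each library, in which 3 counts correspond to 0.140 to 0.369 CPM. Slc17a7, the vesicular glutamate transporter that marks glutamatergic neurons, was at 896 to 1928 CPM in naïve mice and 738 to 1797 CPM in withdrawn mice. Withdrawn mouse 2 stood apart from the other 4 withdrawn mice in several of the genes described here, and key values are therefore also given without it. Withdrawn mice 2 and 4 had the largest shares of reads assigned to no gene, 50.2% and 58.0%. These mice also had the fewest counts on genes, 8696939 and 7351567. The part of library quality in the values was not tested. In 3 withdrawn mice (3, 4 and 5) a further label reads control, against the title and treatment that place them in the ethanol group. Values without them are given for some results, among them S100a1, S100a11, S100b, S100a10, S100a6 and the pairs of members. They are not given for the partner and marker genes described as high in withdrawn mice 1, 3, 4 and 5, and these 3 mice are among the high ones. Naïve mouse 5 had the fewest genes detected, 15585.

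Of the 8 genes, 7 lie on chromosome 3 between positions 90511034 and 93564643 of GRCm38, and S100b lies on chromosome 10. S100a1 (ENSMUSG00000044080, positions 90511034 to 90514392, minus strand) and S100a13 (positions 90514435 to 90524581, plus strand) start head to head with 42 bases between their annotated ends. That gap is shown because it lies upstream of both genes, and S100a1 is the member with the highest ratio between the groups. It is given 5′ to 3′ on the plus strand, as read from the RefSeq promoter table for GRCm38.p6, and no part of it is set in capitals.
Gap between S100a1 and S100a13, chr3:90514393-90514434: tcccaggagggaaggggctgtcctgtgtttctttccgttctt
The 42 bases were 54.8% G or C. The second sequence is shown because S100a11 had the highest ratio among the tested members other than S100a1. It is the 120 bases before the annotated start of S100a11 (ENSMUSG00000027907, positions 93520488 to 93526287, plus strand), with each GGGCGG, the core of the GC box, in capitals.
Upstream of S100a11, chr3:93520368-93520487: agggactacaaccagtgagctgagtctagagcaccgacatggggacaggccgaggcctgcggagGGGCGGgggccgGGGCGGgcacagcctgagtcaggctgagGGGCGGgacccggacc
This stretch held 3 GC boxes and was 71.7% G or C. Across the 32851 promoter windows of the table, each from 250 bases before to 50 after a start and searched on both strands, 35.7% held GGGCGG. Of the 7 members with a window, S100a11 and S100a16 held it, or 2 of 7. TATAAA stood in the window of S100a4 (13.6% of all windows) and CCAAT in those of S100a6 and S100b (37.4%), while TGACGTCA, the cyclic AMP response element, stood in none of the 7 (1.79%). A match describes letters only, and S100a10 had no entry.

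S100a1, which in muscle regulates the ryanodine receptor and the calcium pump SERCA, had a low and even level in naïve mice and a level that was high in 4 of 5 withdrawn mice. Its level in naïve mice had a lowest value of 5.62, a median of 6.01 and a highest value of 8.06 CPM. In withdrawn mice 1 to 5 it was 126, 3.81, 72.6, 104 and 34.2 CPM. Withdrawn mice 1, 3, 4 and 5 were all above every naïve mouse, and withdrawn mouse 2 was below every naïve mouse. The naïve mean was 6.37 CPM with an SD of 0.97 over 6 mice. The withdrawn mean was 68.1 CPM with an SD of 49.9 over 5 mice, which is 10.7 times the naïve mean, or 13.2 times without withdrawn mouse 2. The counts behind these values ran from 60 to 119 in naïve mice and from 34 to 1747 in withdrawn mice. The fitted log2 fold change, withdrawn over naïve, was 3.42. It was 3.32 without the 3 mice whose labels conflict, which leaves withdrawn mice 1 and 2 at 126 and 3.81 CPM. The value of 3.32 therefore rests on the high level of withdrawn mouse 1. Of all 17093 genes tested, 4.60% had at least 4 of 5 withdrawn mice above every naïve mouse. For no member were all 5 withdrawn mice above every naïve mouse, as for 0.690% of tested genes, or all below, as for 0.257%. These libraries hold many cells, so a difference in the number of cells of a type and a difference in RNA per cell cannot be told apart.

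**Figure D1:**
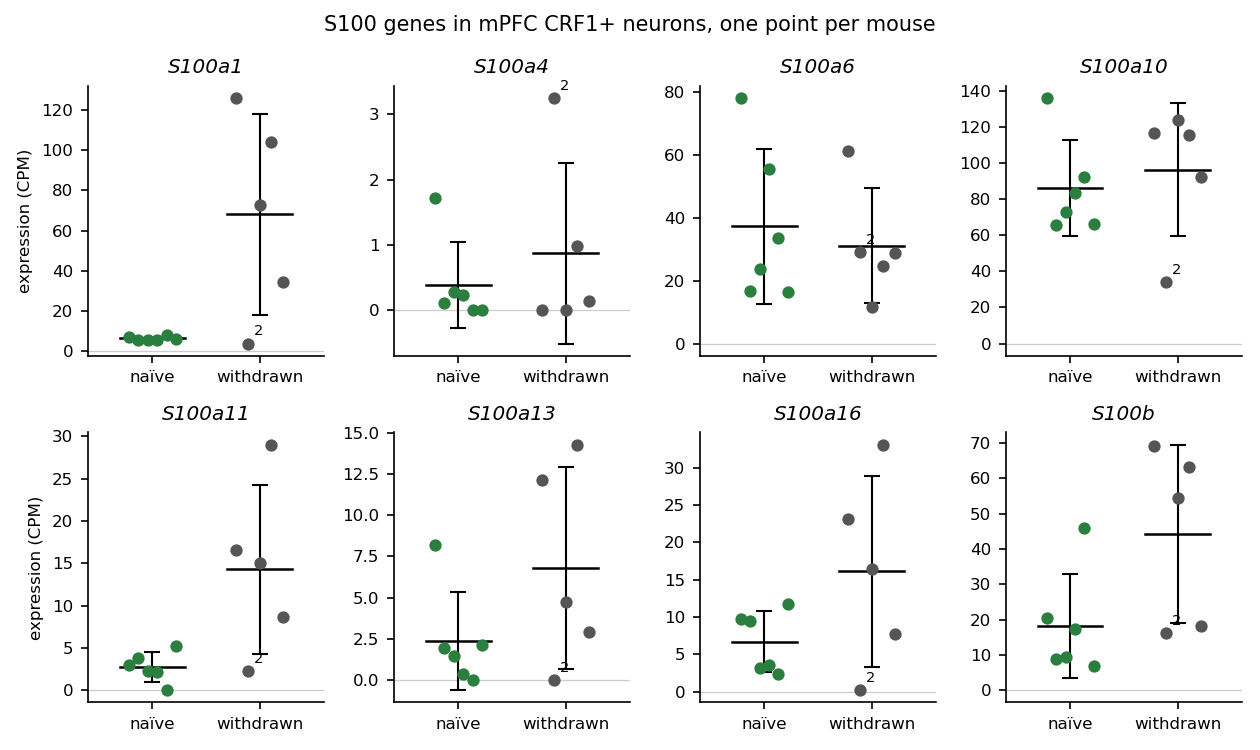
Expression in CPM (linear axis, a scale of its own for each gene) of the 8 S100 genes, with a point for each of the 6 naïve (green) and 5 withdrawn (gray) mice, a line at the mean and a bar of 1 SD on either side, and the numeral 2 beside withdrawn mouse 2. For S100a1 withdrawn mice 1, 3, 4 and 5 lie at 34.2 to 126 CPM above all naïve mice, while withdrawn mouse 2 lies at 3.81 CPM.

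None of the other members passed the threshold for a called gene, an adjusted p of at most 0.05 in edgeR's quasi-likelihood test with a log2 fold change beyond 0.6. Under that rule 1 of the 17093 genes was called, or 0.00585%. That share is given as background, and no call is given for S100a1. S100a4 did not pass the filter on low counts and was not tested. Of the 6 members tested apart from S100a1, 5 had a higher and 1 a lower fitted level in withdrawn mice, beside 51.8% of all tested genes with a higher one. Their median log2 fold change was 1.28, beside 0.021 over all genes. S100a11 and S100b had an unadjusted edgeR p under 0.05, both with the higher level in withdrawn mice. In all tested genes 7.22% had such a p, 5.00% with a higher and 2.22% with a lower level. The DESeq2 Wald test called none of the 7 members other than S100a1. It called 0.887% of the 40831 genes that had a p. DESeq2 can leave genes with low counts without an adjusted p, and such genes stay in the 40831. That share is therefore not comparable with the share called by edgeR.

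S100a11, a partner of annexins A1 and A2 in membrane repair and traffic, had the largest difference among the tested members other than S100a1. In naïve mice its lowest value was 0, its median 2.63 and its highest value 5.25 CPM. In withdrawn mice 1 to 5 its level was 16.6, 2.24, 15.04, 29.0 and 8.63 CPM. As for S100a1, withdrawn mice 1, 3, 4 and 5 were above every naïve mouse and withdrawn mouse 2 was not. The log2 fold change was 2.38 with a standard error (SE) of 0.87, an edgeR p of 0.0166 and an adjusted p of 0.493. DESeq2 gave an adjusted p of 0.0934. The edgeR p was 0.0562 without withdrawn mouse 4 and 0.199 without the 3 mice whose labels conflict. The naïve mouse listed at 0 is naïve mouse 5.

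S100b (ENSMUSG00000033208, chromosome 10, positions 76253853 to 76261159, plus strand) varied widely in both groups. Its lowest, median and highest values in naïve mice were 6.79, 13.4 and 46.0 CPM, the highest in naïve mouse 5. In withdrawn mice 1 to 5 its level was 69.2, 16.1, 54.4, 63.3 and 18.1 CPM. Withdrawn mice 1, 3 and 4 were above every naïve mouse, and withdrawn mice 2 and 5 lay within the naïve range. The naïve mean was 18.1 CPM with an SD of 14.6, and the withdrawn mean was 44.2 CPM with an SD of 25.3. The log2 fold change was 1.29 (SE 0.53), with an edgeR p of 0.0306 and an adjusted p of 0.614. The S100b gene model overlaps Dip2a on the opposite strand but shares no exonic base with it. The edgeR p was 0.0901 without withdrawn mouse 1, 0.0693 without withdrawn mouse 3, 0.0783 without withdrawn mouse 4 and 0.122 without the 3 mice whose labels conflict. It also lay above 0.05, at 0.0501 to 0.0647, without naïve mouse 2, 3, 4 or 6. Without naïve mouse 5 the log2 fold change was 1.82 and the edgeR p 0.00192.

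S100a16 (positions 90537254 to 90543151, plus strand) and S100a13, which takes part in the release of fibroblast growth factor 1 by an unconventional route, had their highest values in the same withdrawn mice. S100a16 ranged from 2.37 to 11.8 CPM in naïve mice with a median of 6.53, and in withdrawn mice 1 to 5 it was 23.1, 0.224, 16.4, 33.1 and 7.78 CPM. Withdrawn mouse 2 lay below every naïve mouse and withdrawn mice 1, 3 and 4 lay above them all. The log2 fold change of S100a16 was 1.27 (SE 0.79) with an edgeR adjusted p of 0.816, which was 0.385 without withdrawn mouse 2. S100a13 ranged from 0 to 8.16 CPM in naïve mice with a median of 1.74, and in withdrawn mice 1 to 5 it was 12.1, 0, 4.76, 14.3 and 2.90 CPM. Only withdrawn mice 1 and 4 were above every naïve mouse, and the log2 fold change was 1.53 (SE 1.21, edgeR adjusted p = 0.866). Without naïve mouse 1, which had the highest naïve value, it was 2.49 (edgeR adjusted p = 0.846). Without withdrawn mouse 4 the log2 fold change of S100a16 was 0.82.

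S100a10 (positions 93555080 to 93564643, plus strand) and S100a6 (positions 90612882 to 90624181, plus strand), the members with the highest levels in naïve mice, had fitted differences smaller than their SE. S100a10 carries serotonin receptors and ion channels to the cell surface, and S100A6 binds the calcyclin-binding protein encoded by Cacybp. S100a10 ranged from 65.5 to 136 CPM in naïve mice with a median of 78.0, and in withdrawn mice 1 to 5 it was 116, 34.0, 124, 115 and 92.4 CPM. The log2 fold change was 0.17 (SE 0.30, edgeR adjusted p = 0.954), and only withdrawn mouse 2 fell outside the naïve range. S100a6 ranged from 16.5 to 78.1 CPM in naïve mice with a median of 28.7, and in withdrawn mice 1 to 5 it was 61.2, 29.2, 11.7, 24.7 and 28.8 CPM. Its log2 fold change was -0.26 (SE 0.47, edgeR adjusted p = 0.954), and only withdrawn mouse 3 was outside the naïve range. The direction of both genes turned without the 3 mice whose labels conflict, to -0.23 for S100a10 and 0.23 for S100a6, and that of S100a6 also without naïve mouse 1, to 0.0857.

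S100a4 (positions 90603771 to 90606045, plus strand), a binder of non-muscle myosin in moving cells, was near the limit of detection. It had 16, 2, 3, 4, 0 and 0 counts in naïve mice 1 to 6 and 0, 29, 0, 8 and 2 counts in withdrawn mice 1 to 5. Its highest value, 3.25 CPM, was in withdrawn mouse 2, the mouse in which S100a1 was lowest. Of its 584 exonic bases, 302 are shared with Gm42674 on the same strand, and reads in the shared bases cannot be assigned to 1 of the 2 genes, so its counts are uncertain.

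**Figure D2:**
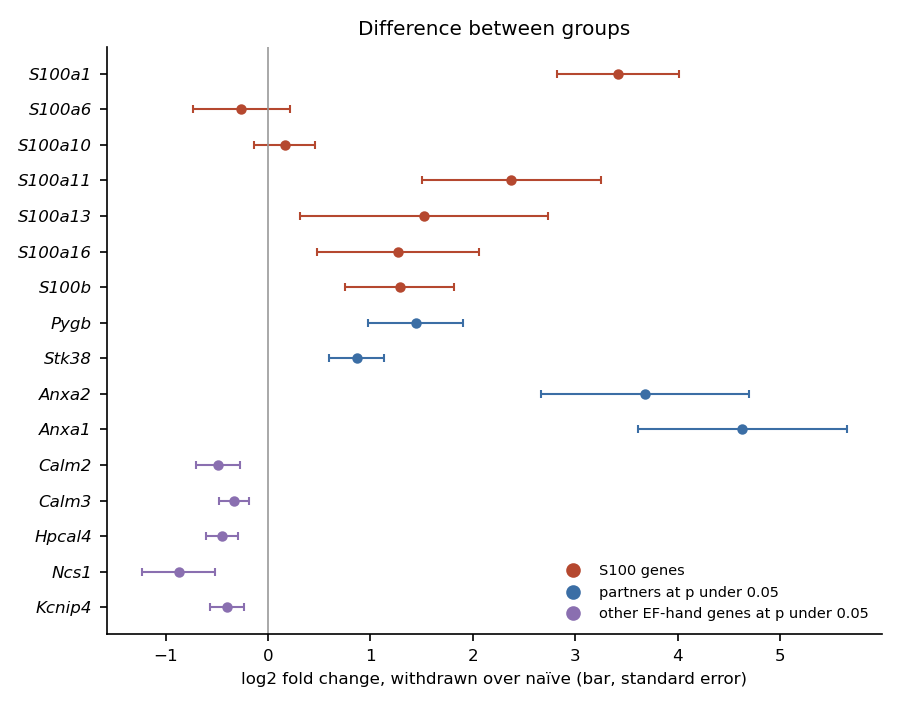
Log2 fold change (withdrawn over naïve) of the 7 S100 members that passed the low-count filter (red) and of the partner (blue) and EF-hand (purple) genes at an unadjusted p under 0.05, with bars of 1 SE on either side, from the edgeR fit. S100a1 is drawn at 3.42 as a description, and its bar is not to be read as a test. S100a10 at 0.17 and S100a6 at -0.26 lie close to 0.

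Levels of different genes were compared per kilobase of exon. In naïve mice the mean order was S100a10 at 70.9, S100a6 at 27.3, S100b at 12.2, S100a1 at 9.18, S100a11 at 5.37, S100a16 at 4.14, S100a13 at 3.31 and S100a4 at 0.67 CPM per kilobase. The ranges over mice of every pair of neighbors in that order overlapped, beginning with 54.0 to 112 for S100a10 and 12.1 to 57.1 for S100a6. In withdrawn mice S100a1 had the highest mean, 98.2 CPM per kilobase, followed by S100a10 at 79.5, S100b at 29.8, S100a11 at 28.0 and S100a6 at 22.8. S100a16 at 9.97, S100a13 at 9.52 and S100a4 at 1.50 followed. The rank of S100a1 in withdrawn mice rests on the values that led to its inclusion.

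**Figure D3:**
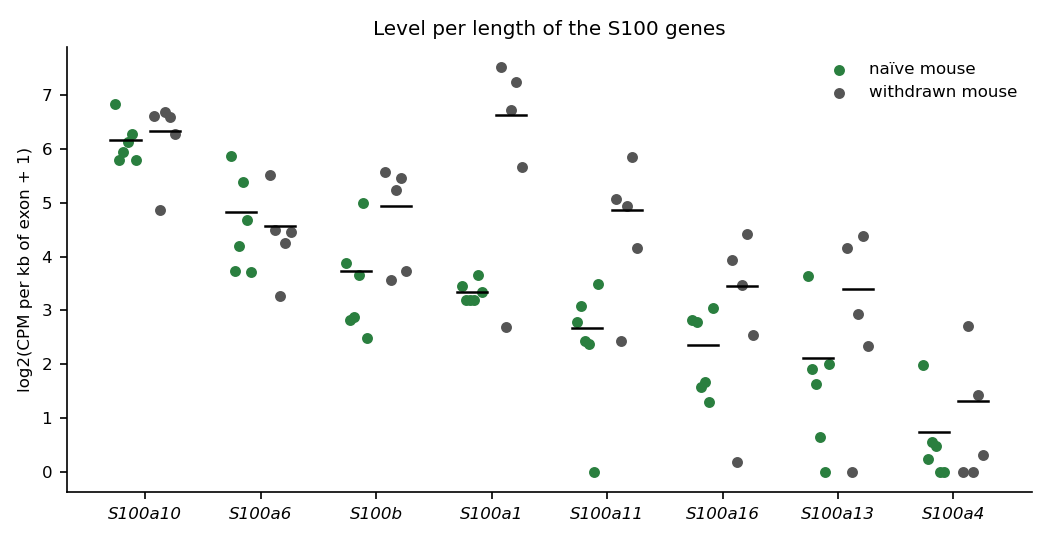
Level of each S100 gene as log2(CPM per kilobase of exon + 1), with a point for each naïve (green) and withdrawn (gray) mouse and a line at the group mean. Genes are ordered by their naïve mean, from S100a10 at 70.9 CPM per kilobase to S100a4 at 0.67, and S100a1 has the highest withdrawn mean at 98.2.

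Some members varied together from mouse to mouse within the groups. For each of the 21 pairs of the 7 tested members, log2 CPM was centered on the group mean and correlated over the 11 mice, with an exact permutation test that reordered mice within groups. The two-sided p-values were adjusted over the 21 pairs, and the pairs share libraries and depth. The adjusted p was at most 0.05 in 6 pairs. S100a13 and S100a16 had a Pearson r of 0.90 (Spearman rho 0.86, p = 0.000289, adjusted p = 0.00304, exact permutation). S100a11 had an r of 0.85 with S100a13 (rho 0.86, p = 0.00179, adjusted p = 0.00942, exact permutation) and of 0.74 with S100a16 (rho 0.83, p = 4.63e-05, adjusted p = 0.000972, exact permutation). These were the 3 pairs among S100a11, S100a13 and S100a16, and their rho each had an adjusted permutation p of 0.0148. The pairs of S100a1, S100b and S100a10 made up the other 3. The r was 0.64 for S100a1 with S100b (rho 0.83, p = 0.000995, adjusted p = 0.00697, exact permutation), 0.87 for S100a1 with S100a10 (rho 0.72, p = 0.0107, adjusted p = 0.0374, exact permutation) and 0.70 for S100a10 with S100b (rho 0.75, p = 0.00992, adjusted p = 0.0374, exact permutation). For those rho the adjusted permutation p was 0.0412. S100a1 spanned only 5.62 to 8.06 CPM in naïve mice and 3.81 to 126 CPM in withdrawn mice. The r of its pairs therefore rests mostly on the withdrawn mice, whose values led to its inclusion. Without the 2 mice farthest from the median of the first gene, r of the 6 pairs was between 0.53 and 0.76. S100a1 and S100a16 had an r of 0.90 but an adjusted p of 0.0706 by the exact permutation test. S100a6 passed with no other member, and no pair passed without the 3 mice whose labels conflict, while 10 passed without naïve mouse 5 and 4 in 6 of the other omissions of 1 mouse.

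**Figure D4:**
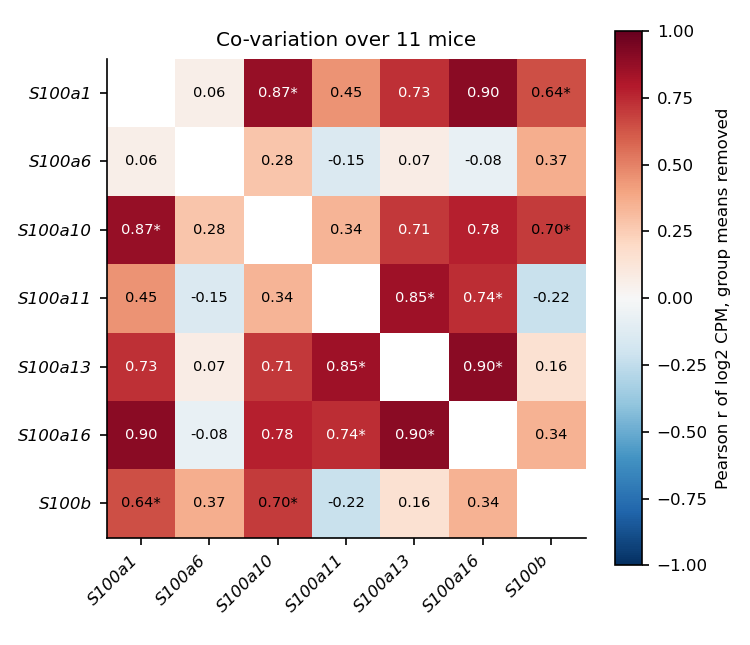
Pearson r of log2 CPM, centered on group means, between the 7 tested S100 members over 11 mice, with asterisks where the adjusted exact permutation p is at most 0.05. The asterisks fall on S100a11, S100a13 and S100a16 together and on S100a1, S100b and S100a10 together, and none falls on S100a6.

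Over all tested genes, the 5 with the highest r with S100a1 after centering were Efemp2, Emb, Actn2, Galnt13 and Fam210b. Efemp2, an extracellular matrix protein, had an r of 0.98 and a rho of 0.93. Emb, Actn2, Galnt13 and Fam210b each had an r of 0.97, with rho from 0.63 to 0.78. No p is given, since they were the highest of all 17093 genes over the same 11 mice. Without withdrawn mice 1 and 2, r fell to 0.89 for Efemp2 and to between 0.78 and 0.80 for the others.

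Of 50 genes for partners and receptors of the S100 proteins, 42 were tested, 24 with a higher and 18 with a lower level in withdrawn mice. At an unadjusted edgeR p under 0.05 there were 4, all higher, while the background was 5.00%. None was called by edgeR and 1, Anxa1, by DESeq2. The median log2 fold change of the 42 was 0.08. Anxa1, the annexin that S100A11 binds, had a lowest value of 1.50, a median of 3.49 and a highest value of 6.99 CPM in naïve mice. In withdrawn mice 1 to 5 it was 143, 0, 113, 207 and 25.8 CPM, again with withdrawn mouse 2 below the naïve mice. The log2 fold change was 4.63 (SE 1.02), with an edgeR adjusted p of 0.129, which was 0.00293 without withdrawn mouse 2, and a DESeq2 adjusted p of 0.000469. Anxa2, the partner of S100A10, ranged from 0 to 18.2 CPM in naïve mice and was 230, 0.672, 200, 312 and 75.8 CPM in withdrawn mice 1 to 5. Its log2 fold change was 3.68 (SE 1.02), with an edgeR adjusted p of 0.265, or 0.0206 without withdrawn mouse 2. The high values of Anxa1 and Anxa2 include those of withdrawn mice 3, 4 and 5, whose labels conflict. Anxa2 had a higher mean in withdrawn mice than in naïve mice, and S100a10 had a log2 fold change of 0.17, or 0.37 without withdrawn mouse 2 (edgeR adjusted p = 0.833).

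The others at an unadjusted p under 0.05 were Pygb, the brain glycogen phosphorylase that S100A1 binds, and Stk38, a kinase that S100B binds. The log2 fold change of Pygb was 1.44 (SE 0.46, edgeR adjusted p = 0.380) and that of Stk38 was 0.87 (SE 0.27, edgeR adjusted p = 0.349). Ahnak, a scaffold that binds the S100A10 and annexin A2 complex, had a log2 fold change of 1.49 (SE 0.98, edgeR adjusted p = 0.822). Of the calcium-handling partners of S100A1, Ryr2 was at -0.16 (SE 0.36, adjusted p = 0.966) and Atp2a2, the calcium pump, at -0.09 (SE 0.17, adjusted p = 0.959). Cacybp was at -0.26 (SE 0.16, adjusted p = 0.809). Ager, the receptor RAGE, was too low to test, with 0.07 CPM in naïve and 0.40 CPM in withdrawn mice on average.

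Other EF-hand calcium sensors and buffers mostly had lower levels in withdrawn mice, opposite in sign to 5 of the 6 S100 members tested apart from S100a1. Of 31 listed genes 30 were tested, 3 with a higher and 27 with a lower level in withdrawn mice, and their median log2 fold change was -0.26, whereas 51.8% of all tested genes had a higher level. Glutamatergic markers, whose part was not tested, also were lower in 6 of 8 cases, among them Neurod2 at a log2 fold change of -0.45 (edgeR adjusted p = 0.653). At an unadjusted edgeR p under 0.05 there were 5, all lower, beside a background of 2.22%, and none was called. They were Calm2, Calm3, Hpcal4, Ncs1 and Kcnip4. Hpcal4, a neuronal calcium sensor, ranged from 950 to 1187 CPM in naïve mice with a median of 1027, and it was 633, 751, 990, 575 and 883 CPM in withdrawn mice 1 to 5. Withdrawn mouse 3 lay within the naïve range and the other 4 withdrawn mice lay below it. Hpcal4 had a log2 fold change of -0.45, with an edgeR adjusted p of 0.464. The changes of Calm2 and Calm3 were -0.49 and -0.33, with edgeR adjusted p of 0.651 and 0.676. Those of Ncs1, another neuronal sensor, and Kcnip4, a potassium channel subunit, were -0.87 and -0.40, with edgeR adjusted p of 0.608 and 0.597. Naïve mouse 5 was at 466 CPM for Ncs1 and the other naïve mice at 113 to 153 CPM, and without naïve mouse 5 its log2 fold change was -0.38. For Calm2, with naïve mouse 5 at 6242 CPM, it was -0.29 without that mouse. Without withdrawn mouse 4 only 1 listed gene, Hpcal4, had an unadjusted edgeR p under 0.05, and the count was 2 without naïve mouse 1, naïve mouse 5 or withdrawn mouse 2 and 3 without withdrawn mouse 1. Pvalb, the calcium buffer of a class of interneurons, had a log2 fold change of 0.09 (SE 1.1775, edgeR adjusted p = 0.993) at about 1 CPM.

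The gene on the other side of S100a1 from S100a13 had no difference like that of S100a1. It is Chtop (positions 90498956 to 90509498, minus strand), which averaged 102 CPM (SD 23.0) over the naïve mice and 81.9 CPM (SD 29.0) over the withdrawn mice. Its log2 fold change was -0.32 (SE 0.25, edgeR adjusted p = 0.865). Between the outermost members on the chromosome 121 genes are annotated, of which 11 were tested, 6 of them members. Of the 5 others, 3 were higher and 2 lower in withdrawn mice, and none had an unadjusted edgeR p under 0.05.

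Of the 10 genes of the fibroblast list, 5 (Col1a1, Col1a2, Dcn, Ogn and Fn1) were above every naïve mouse in withdrawn mice 1, 3, 4 and 5, as S100a1 was. Over all tested genes, 4.60% had at least 4 of 5 withdrawn mice above every naïve mouse. The summed level of the fibroblast list was 0.07 to 90.1 CPM in naïve mice and 29.4 to 1736 CPM in withdrawn mice, and it was 1736, 29.4, 1019, 1421 and 355 CPM in withdrawn mice 1 to 5. Of its 7 tested genes, 6 had an unadjusted edgeR p under 0.05, all with the higher level in withdrawn mice, beside 5.00% of all tested genes. Lum, Igf2 and Aldh1a2 did not pass the low-count filter, so the count leaves them out. Col1a1, its defining gene, ranged from 0 to 16.5 CPM in naïve mice and was 378, 3.02, 151, 225 and 70.0 CPM in withdrawn mice 1 to 5. Withdrawn mouse 2 lay within the naïve range of Col1a1, and the other 4 above it. For S100a1 the other 4 were also above, but withdrawn mouse 2 lay below every naïve mouse. Other genes of the list, all at low levels, were not above every naïve mouse in withdrawn mice 1, 3, 4 and 5. Lum was at 0 in withdrawn mice 3 and 5 and averaged 1.36 CPM in naïve and 0.910 CPM in withdrawn mice. Its naïve mean rested mostly on naïve mouse 6 at 6.85 CPM. The median of Lum was 0.228 CPM in naïve and 0.672 CPM in withdrawn mice. Igf2 averaged 0.468 CPM in naïve and 0.0916 CPM in withdrawn mice. Slc6a13 was at 0 in withdrawn mice 3 and 5 and highest in withdrawn mouse 2 at 6.94 CPM. Its log2 fold change was 1.25, with the higher level in withdrawn mice. Aldh1a2 was at 0 in withdrawn mouse 3 and averaged 0.458 CPM in naïve and 1.49 CPM in withdrawn mice. The part of fibroblasts in the S100 values was not tested.

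The astrocyte list, of interest because of S100b, summed to 299 to 569 CPM in naïve and 260 to 983 CPM in withdrawn mice. Aqp4, its defining gene, was at most 10.6 CPM and at 0 in 3 mice, withdrawn mice 2 and 3 among them. Of its 9 tested genes 3 were higher and 6 lower in withdrawn mice, with a median log2 fold change of -0.21. Gfap, which did not pass the low-count filter, averaged 12.2 CPM in naïve and 1.06 CPM in withdrawn mice. Its naïve median was 2.84 CPM, and its highest naïve values, 26.1 and 41.6 CPM, were in naïve mice 2 and 6. The connexin genes Gja1 and Gjb6 alone of the list were above every naïve mouse in withdrawn mice 1, 3, 4 and 5, with Gja1 at 309, 6.38, 217, 273 and 129 CPM in withdrawn mice 1 to 5 and at most 31.9 CPM in naïve mice. Without these 2 genes the list summed to 294 to 522 CPM in naïve and 254 to 383 CPM in withdrawn mice. Aldoc had an unadjusted edgeR p of 0.0255 with the lower level in withdrawn mice. The part of astrocytes in the S100 values was not tested. Glutamatergic markers summed to 2958 to 4480 CPM in naïve and 1918 to 4098 CPM in withdrawn mice, GABAergic markers to 106 to 976 and 37.4 to 958, endothelial markers to 3.18 to 775 and 39.5 to 651, and mural markers to 0.20 to 167 and 13.7 to 240. Oligodendrocyte markers summed to 135 to 275 and 109 to 283 CPM, their precursors to 0 to 15.5 and 8.21 to 28.5, microglial markers to 3.79 to 10.2 and 10.2 to 19.8, and ependymal markers to 4.50 to 14.9 and 8.91 to 14.3. Single genes within these sums had the pattern of S100a1, above every naïve mouse in withdrawn mice 1, 3, 4 and 5. They were Cldn11 and Aspa of the oligodendrocyte list and Tmem119 of the microglial list. Cldn11 averaged 0.554 CPM in naïve and 19.4 CPM in withdrawn mice. Its log2 fold change was 5.09 (edgeR adjusted p = 0.262, DESeq2 adjusted p = 0.0085). Aspa averaged 0.274 and 21.0 CPM, and Tmem119 averaged 0.543 and 7.39 CPM. Sst, of the GABAergic list, averaged 247 CPM in naïve and 6.53 CPM in withdrawn mice, ranging from 0.07 to 699 CPM among the naïve mice, with an edgeR adjusted p of 0.545. The part of these cell types in the S100 values was not tested.

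**Figure D5:**
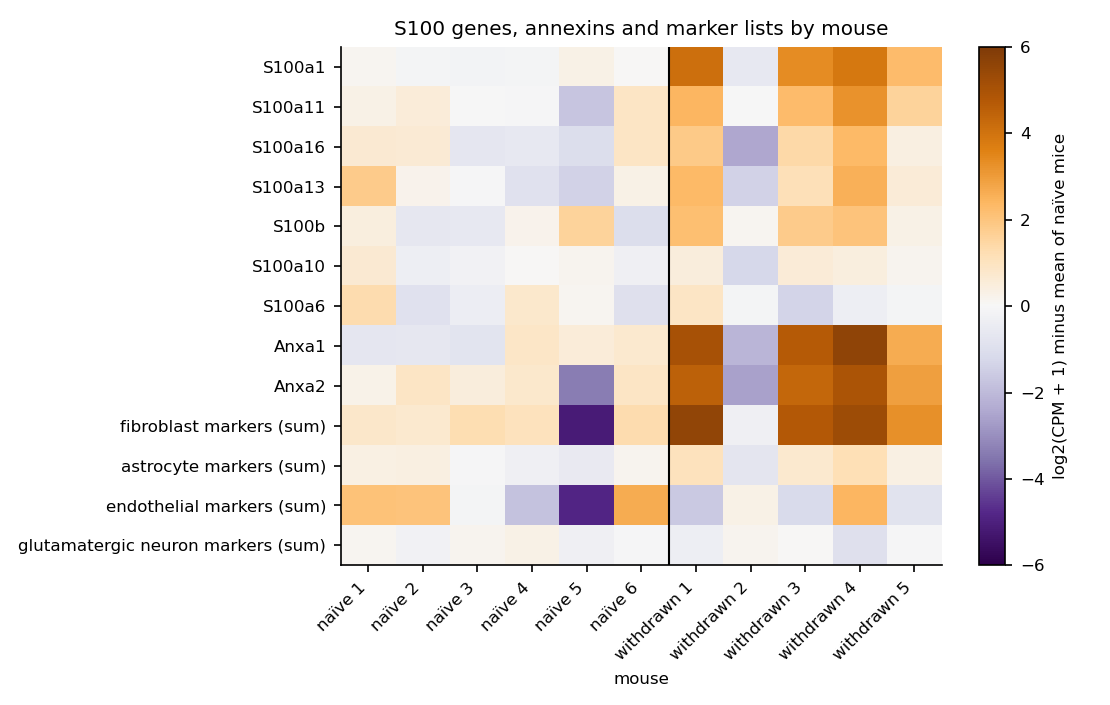
Log2(CPM + 1) of 7 S100 members, Anxa1, Anxa2 and 4 summed marker lists in each mouse, minus the mean of the naïve mice, from purple (lower) to orange (higher). S100a1, S100a11, both annexins and the fibroblast list are orange in withdrawn mice 1, 3, 4 and 5 and pale or purple in withdrawn mouse 2.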

How the data were processed

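RNA of about 160 pg per mouse was amplified from poly(A) transcripts and sequenced. The authors aligned trimmed reads to GRCm38 with STAR and deposited raw read counts per gene from HTSeq; whether counting used strand is not given in the sources used here. Reads assigned to no gene (18.9 to 58.0% of the rows' total) were left out. Gene symbols came from GENCODE M21 and matched 53360 of 53465 identifiers. Genes were kept by filterByExpr with a minimum count of 10 (total 15), scaled by TMM and tested with edgeR 4.0.16 (quasi-likelihood, Benjamini-Hochberg over 17093 genes; R 4.3.3). DESeq2 1.42.0, the study's test, was an alternative. The other alternatives were other scalings, other count filters, the replicate number as a block and leaving out mice; named partner and EF-hand genes were added to these after the data were seen. Log2 CPM used a prior count of 2. The tests were checked on simulated data. Counting limits cover counting error only. No 2 mice had counts that agree within sampling noise (lowest chi-square per degree of freedom 29.3). Groups came from titles and treatment. A separate statement of the design counts 5 control and 6 ethanol mice.

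The members and the lists were chosen with earlier results of these data known. Genes were named by rule. They were the members, every other S100 gene with a count, the neighbors of S100a1 and the 5 genes most correlated with S100a1. Partner and EF-hand genes with an unadjusted p under 0.05 were added, plus a set kept whatever their values. The rule also covered the first gene of each marker list. Of these, Slc17a7, Col1a1, Aqp4 and S100a8 are named, and the others are given only within the sums of their lists. Marker genes other than the first of a list were named after their values were seen. 1 gene each of the EF-hand and microglial lists is not reported here and was left out of their counts and sums.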

Additional observations from a re-analysis of the deposited data

Results flagged for a closer look

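S100a10 in withdrawn mouse 2, with a log2 CPM of 5.09, lay far below the other 4 withdrawn mice. S100a11 in naïve mouse 5, where no count was found, lay far below the other naïve mice, with a log2 CPM of -2.80. Both were found by comparing the gap to the nearest mouse with the range of the group in 14 groups, of which chance alone would give about 1 in 20, or 0.7.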

How the results depend on the processing

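The count of genes called over all genes was 1 and became 362 with DESeq2, which was run on 40831 genes in place of 17093 so that test and filter changed together, 137 with no filter, 30 with at least 10 counts in every mouse and 0 both with the replicate block and without the 3 mice whose labels conflict. Leaving out each mouse gave 0 to 193, with 193 without withdrawn mouse 2, 6 without naïve mouse 2, 1 without naïve mouse 4 and 0 without any other. Of the 362, 342 were higher, and of the 193, 192. No other S100 member was called in any alternative run. The members at an unadjusted p under 0.05 numbered 2. There was 1 with at least 10 counts in every mouse, a filter that S100a11 did not pass, so it was not tested there. There was 1 with the replicate block and 0 without the 3 mice. Leaving out each mouse gave 0 to 3, with 0 without withdrawn mouse 4 and 3 without withdrawn mouse 2. It gave 1 without naïve mouse 2, 3, 4 or 6 or withdrawn mouse 1 or 3. Partner genes at that p numbered 4, and 2 with at least 10 counts in every mouse, a filter that Anxa1 and Anxa2 did not pass. EF-hand genes numbered 5, and 3 with no filter and 1 to 6 when leaving out each mouse. The pairs that varied together numbered 6, and 0 without the 3 mice and 4 to 10 when leaving out each mouse. The direction turned for S100a6 (0.23 without the 3 mice, -0.69 to 0.0857 when leaving out each mouse), S100a10 (-0.23 without the 3 mice), Ryr2 (0.11 with the replicate block, -0.36 to 0.0154 when leaving out each mouse) and Pvalb (-0.18 without the 3 mice, -0.58 to 0.61 when leaving out each mouse). The cause was not tested. Of 371 such values for the members and named genes, 356 were counted as unchanged, 10 turned and 5, for Anxa1 and Anxa2, passed the threshold. Unchanged meant the same direction and side of the threshold. For S100a1, which got no test, it meant the same direction and a log2 fold change within the pooled SD of its log2 CPM. The side of the threshold was not checked for S100a1. Same-numbered mice are different animals whose deviations correlated at -0.20 to 0.18, and 1 of 5 withdrawn mice correlated best with its own number. With the replicate block the log2 fold change was 2.90 for S100a1 and 2.98 for S100a11, and the edgeR p of S100b was 0.0654. Counts as low as those of S100a4 and S100a13 limit any statement on those genes.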

Other observations

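Of 9 other S100 family genes in the files, S100a3 alone was tested, with 0, 0, 2, 10, 36 and 19 counts in naïve mice 1 to 6 and 24, 110, 0, 19 and 4 in withdrawn mice 1 to 5, and a log2 fold change of 2.16 (SE 1.45, edgeR adjusted p = 0.827). S100a8 and S100a9, which neutrophils carry in large amounts, were found mainly in withdrawn mice 2 and 4, S100a8 with 3 and 21 counts and S100a9 with 34 and 5, beside at most 7 counts of S100a9 in any naïve mouse. The neutrophil list summed to 0 to 1.78 CPM in naïve and 0.05 to 6.83 CPM in withdrawn mice, and the erythroid list to 0 to 49.3 and 0.36 to 194 CPM. S100a7a had 79 counts in withdrawn mouse 1, 21 in withdrawn mouse 4 and at most 19 in any naïve mouse. S100g had at most 8 counts in any mouse, S100a2 had none, and S100a5, S100a14 and S100z had counts in at most 2 mice each.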
